A study of Homo sapiens with 12 samples.

Results

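The comparison described here is the average response of breast cancer xenografts to the p38 MAP kinase inhibitor SB202190: 6 libraries from tumours that received it were set against 6 from tumours that did not. These are all 12 libraries of the study. The tumours grew from MDA-MB-231, an established triple-negative breast cancer line, injected with Matrigel into the mammary fat pad of mice. Dosing began once a tumour had reached 100 mm3 and was given into the peritoneum on 5 days a week. The side with the inhibitor held the p38i group (SB202190 at 1 mg/kg/day, 3 tumours) and the combination group (SB202190 with the EZH2 inhibitor EPZ-6438, 3 tumours). The side without it held the control group (vehicle of DMSO, PEG and Tween, 3 tumours) and the EZH2i group (EPZ-6438 at 10 mg/kg/day, 3 tumours). All 12 tumours thus shared the cell line, the Matrigel and the injection site, and the labels give no strain, age or length of treatment. The labels spell the EZH2 inhibitor both EPZ-6428 and EPZ-6438. They tie column 5 of the count table to 2 p38i tumours and column 6 to none, so these p38i libraries are called col5 and col6, and column 6 is a p38i library by elimination. The others carry the tumour number of their title.

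The p38 kinases are switched on by stress and inflammatory cytokines through the kinases MKK3 and MKK6, and they in turn activate MK2 and related kinases. MK2 acts on proteins that bind AU-rich elements (AREs), stretches in the tails of many cytokine messages, and so sets how long those messages last. Other p38 substrates are transcription factors of the immediate early response. SB202190 blocks the catalytic pocket of p38 alpha and p38 beta, so it acts on enzyme activity, and the level of the p38 transcripts does not report whether the kinase was inhibited. EPZ-6438 blocks EZH2, the methyltransferase of Polycomb repressive complex 2 (PRC2), which silences genes through histone H3.

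Library totals ran from 2208771 to 4467942 counts, and 16389 to 17549 genes had at least 1 count. Neither the totals (exact permutation test within the EZH2 inhibitor strata, two-sided, p = 0.365, adjusted p = 0.487 over 4 library values) nor the genes detected (permutation p = 0.24, adjusted p = 0.48) differed beyond the spread between tumours. All 8 markers of MDA-MB-231 and basal breast cancer cells were expressed, with a summed level of 7793 to 9722 CPM (counts scaled to library size by TMM and edgeR's cpm function) without SB202190 and 7706 to 10494 CPM with it. The summed level of 6 luminal markers was 111 to 128 CPM without and 102 to 143 CPM with it. No gene of 12 marker lists for tumour, stromal, muscle, blood and skin cells passed the test of the main effect. None of the 12514 genes tested passed either, so this says nothing about cell composition in particular. Many markers had too few counts to be tested, with 3 of 10 tested for macrophages and 0 of 7 for neutrophils. The host cells were those of mice, while the reads were aligned to the human genome. Levels of stromal, muscle and blood markers, high or low, therefore cannot be read as host cell content. The p38i library col6 stood apart in skeletal muscle markers, with 1646 CPM in sum, while the other 11 libraries held 59.9 to 175.6 CPM. Counts and several list medians without col6, or without col5 and col6, are given beside the results. In bulk tumour RNA, fewer cells of one type and less RNA per cell cannot be told apart.

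Averaged over both backgrounds, no gene passed the test for SB202190. The additive model, with 1 term for each inhibitor, was fitted with edgeR's quasi-likelihood test, and 0 of 12514 genes (0%) had a Benjamini-Hochberg adjusted p under 0.05. The smallest adjusted p was 0.66. Without adjustment 916 genes (7.32%) were under 0.05, of which 403 (3.22%) were higher and 513 (4.1%) lower with SB202190. This unadjusted count was 455 without control 1-3, 466 without control 1-1, 513 without col6 and 582 without EZH2i 5-3, and it was 1421 without combination 8-1, 1470 without control 2-1 and 1827 without EZH2i 5-4. The same additive model called 0 genes in limma-voom and 1 in DESeq2, which was C15orf48. For 27 genes (0.216%) the 6 libraries with SB202190 did not overlap the 6 without, 12 of them above and 15 below.

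The width of the intervals sets what this comparison could show. The distance from the estimated log2 fold change to either end of its 95% confidence interval had a median of 0.40 over the 12514 genes. The whole interval lay between -1 and 1 for 10278 genes (82.1%) and between -0.5 and 0.5 for 4583 genes (36.6%). A main effect larger than a log2 fold change of 1 in size was thus outside the interval for most genes, while a smaller one was inside it for many.

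The lowest p values belonged to 10 genes, 5 in each direction, of which none passed after adjustment. C15orf48, which encodes a small mitochondrial protein of the respiratory chain, had the smallest. Its level was 9.6, 12.6 and 15.2 CPM in the control tumours and 18.7, 9.4 and 22.3 CPM in the EZH2i tumours. It was 56.9, 27.0 and 31.1 CPM in the p38i tumours and 26.7, 48.7 and 30.8 CPM in the combination tumours. Every library with the inhibitor was therefore above every library without it. The main effect of C15orf48 was a log2 fold change of 1.35 ± 0.26 (SE, n = 6 against 6). Its edgeR p was 8.58e-05 before adjustment and 0.66 after it. DESeq2 gave an adjusted p of 0.00559 for the same size of change, and under 24 alternative settings the log2 fold change stayed between 1.15 and 1.51.

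PLK2, a polo-like kinase induced by stress, ran from 34.1 over a median of 39.0 to 68.1 CPM without SB202190 and from 61.2 over 69.2 to 85.0 CPM with it. Its log2 fold change was 0.66 ± 0.16 (SE, n = 6 against 6; edgeR adjusted p = 0.66), and the sides overlapped because EZH2i 6-1 reached the levels of the treated tumours. ELK1 encodes an ETS transcription factor that MAP kinases phosphorylate. It ran from 9.2 over 14.4 to 22.3 CPM without and from 19.6 over 26.7 to 33.5 CPM with SB202190, a log2 fold change of 0.79 ± 0.22. BTN3A2, a butyrophilin of the immunoglobulin superfamily, ran from 14.4 over 16.6 to 25.6 CPM without and from 21.8 over 26.7 to 31.5 CPM with the inhibitor. RP2, an activator of the GTPase ARL3, ran from 25.0 over 38.5 to 54.9 CPM and from 41.1 over 50.3 to 73.4 CPM on the same sides. In each of these 4 genes the sides overlapped in a few libraries.

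Among the 5 genes with lower levels, POLR3GL, a subunit of RNA polymerase III, was 58.5 to 92.8 CPM without SB202190 and 43.9 to 55.7 CPM with it, with no overlap between the sides. Its log2 fold change was -0.49 ± 0.13 (SE, n = 6 against 6; edgeR adjusted p = 0.66). STK11 encodes the kinase LKB1, which activates AMP kinase. Its level was 43.4 to 71.5 CPM without and 33.7 to 46.7 CPM with the inhibitor, a log2 fold change of -0.56 ± 0.14, and control 2-1 was the library that overlapped the treated side. SMAD9, a receptor SMAD of the BMP pathway, was 6.5 to 21.6 CPM without and 5.2 to 7.8 CPM with the inhibitor (log2 fold change -1.01 ± 0.26). MBD5, a protein with a methyl-CpG binding domain, had a log2 fold change of -0.75 ± 0.19, and DNAJC30, a mitochondrial J-domain protein, one of -0.80 ± 0.20. Both overlapped between the sides through EZH2i 5-4.

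**Figure D1:**
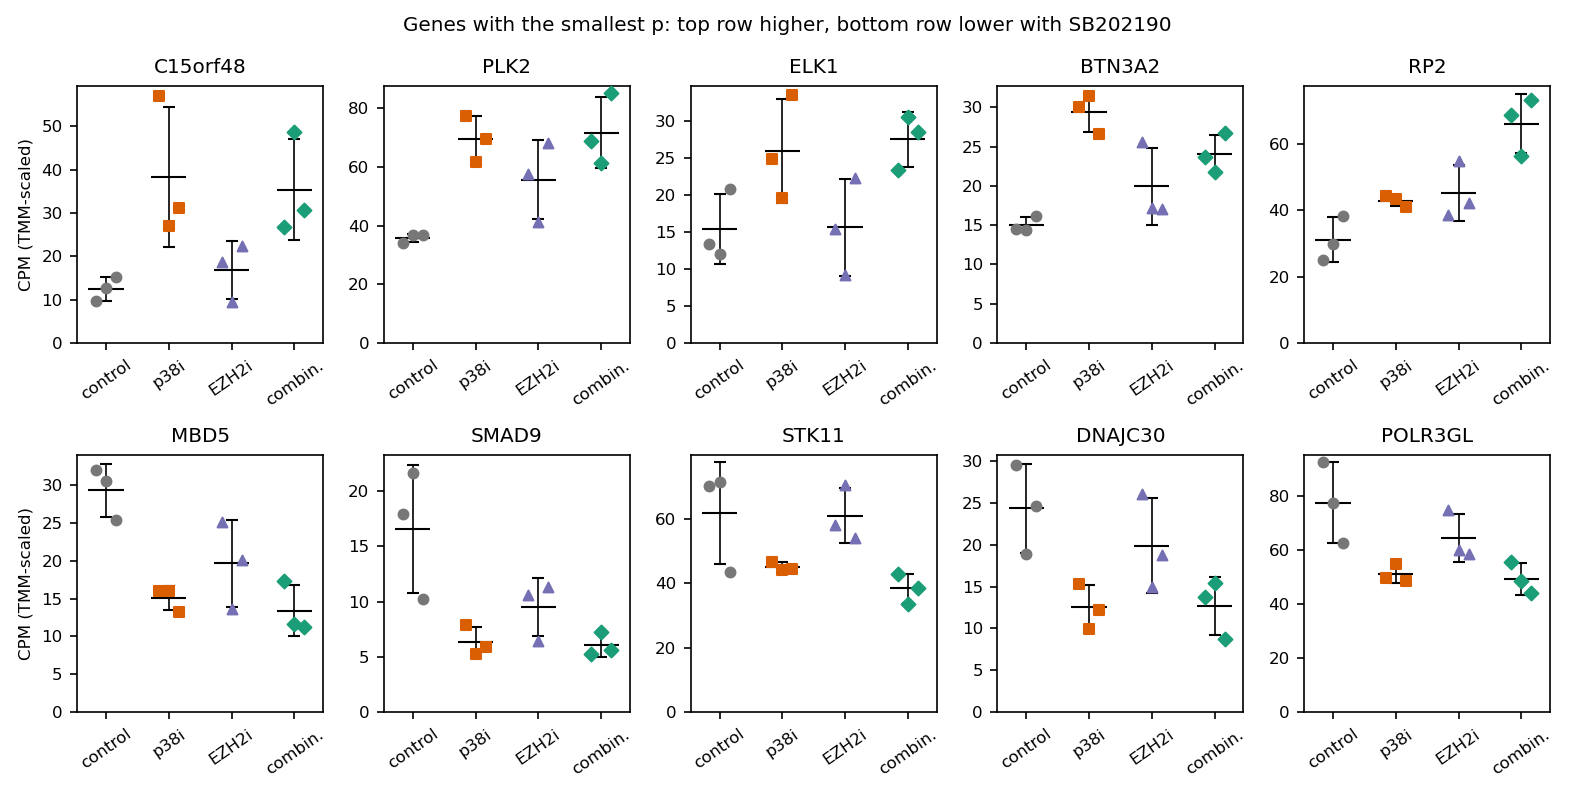
Level of the 10 genes with the lowest p of the main effect, in CPM on a linear axis from 0, with 1 point per tumour and the mean ± SD of each group of 3. The p38i and combination points of C15orf48 all lie above the control and EZH2i points, and those of POLR3GL all lie below them.

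The main effect is an average of 2 independent responses that share no library: p38i against control, and combination against EZH2i. Tested one by one in a model with 1 term per group, they gave different counts. In p38i against control 221 genes (1.77%) passed, 82 higher and 139 lower, and 2300 (18.4%) were under 0.05 without adjustment. In combination against EZH2i, 0 genes passed in edgeR, 391 (3.12%) were under 0.05 without adjustment, and DESeq2 called 1 gene, PTX3, a secreted pentraxin of innate immunity. The unadjusted count was 1037 without EZH2i 6-1, 610 without combination 8-1 and 218 without combination 9-1. The 221 calls in p38i against control also depended on single tumours: their number was 2 without p38i 3-3, 2 without col6, 7 without col5, 3 without control 1-3, 32 without control 1-1, 87 without combination 9-1, 122 without combination 9-2 and 143 without combination 8-1, and it was 446 without EZH2i 5-4 and 568 without control 2-1. Of the 82 genes that rose in p38i, 21 (25.6%) were also higher in the combination than in EZH2i, and the median log2 fold change of the 82 was 0.98 in the first pair and -0.17 in the second. Of the 139 that fell, 35 (25.2%) were lower in both, with medians of -1.31 and 0.14. Over all tested genes 6094 (48.7%) had the same direction in both pairs.

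For most genes called in p38i, the value of the main effect therefore described neither pair. The median main effect of the 82 genes was 0.42 and that of the 139 genes -0.59. C15orf48, PLK2, BTN3A2 and SMAD9 were among those called in p38i against control (edgeR adjusted p = 0.0433, 0.0331, 0.0367 and 0.0493), and each had the same direction in the other pair. Their log2 fold changes in combination against EZH2i were 1.11 for C15orf48, 0.37 for PLK2, 0.28 for BTN3A2 and -0.60 for SMAD9, each with an edgeR adjusted p of 0.991. These genes were picked for a low p of the main effect, which averages both pairs. The choice itself favoured a shared direction, so that direction is no separate evidence.

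An unadjusted p under 0.05 in both pairs was found in the same direction for 17 genes (0.136%), 8 higher and 9 lower, and in opposite directions for 81 genes (0.647%). Taken alone, the pairs had 2300 (18.4%) and 391 (3.12%) genes under 0.05, so some genes meet both thresholds without a shared response. The count in the same direction was below that in opposite directions, so it does not mark the 17 as shared responders. The 17 were singled out after their values were seen, and none passed the test of the main effect. Besides C15orf48, ELK1 and RP2, the higher ones were L1CAM, a cell adhesion molecule, PLAC8, NFKB1, the RNA helicase EIF4A3 of the exon junction complex, and HCCS, which attaches haem to cytochrome c. L1CAM averaged 32.9 CPM in control, 50.2 CPM in p38i, 41.1 CPM in EZH2i and 61.5 CPM in the combination, a log2 fold change of 0.59 ± 0.17 in the main effect. EIF4A3 averaged 164.7, 232.3, 207.3 and 284.2 CPM in the same order. The lower ones were STK11, DNAJC30, POLR3GL, FASTK, SLC27A3, LINC00883, FAM175A, TCAP and TMEM104. TCAP, which encodes the sarcomere protein telethonin, had the lowest value of the main effect among them (-1.29 ± 0.39), with 3.46 CPM for control, 2.76 CPM for EZH2i, 1.32 CPM for p38i and 1.12 CPM for the combination. Of the 17 genes 4 had sides that did not overlap, namely C15orf48, POLR3GL, SLC27A3 and TMEM104, beside 27 (0.216%) of all 12514 genes. A low p in the same direction in both pairs favours sides that do not overlap, so this count is no separate result.

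**Figure D2:**
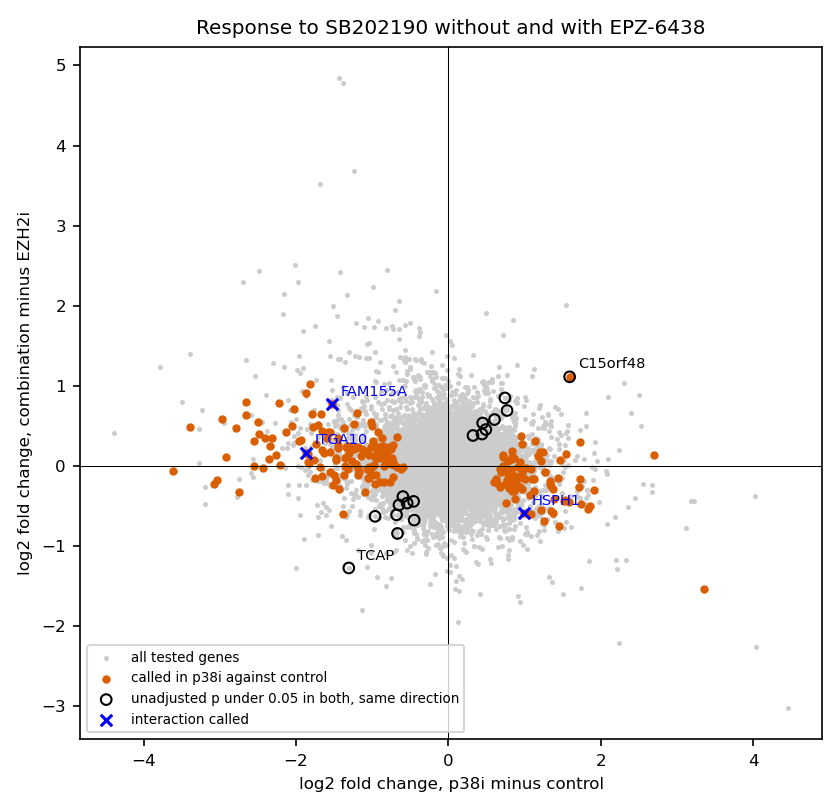
Log2 fold change of each tested gene in p38i minus control (horizontal) and in combination minus EZH2i (vertical). The genes called in p38i (orange) have medians of 0.98 (82 higher) and -1.31 (139 lower) on the horizontal axis and of -0.17 and 0.14 on the vertical one, and the 17 genes with an unadjusted p under 0.05 in both pairs (open circles) lie in the upper right and lower left.

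The difference between the 2 responses was tested directly as an interaction, and 3 genes (0.024%) passed, with 1644 (13.1%) under 0.05 without adjustment. ITGA10, a collagen-binding integrin subunit, stood at 314.3, 255.8 and 231.3 CPM in control and at 79.4, 69.8 and 70.0 CPM in p38i. In EZH2i it was 83.3, 68.9 and 101.7 CPM, and in the combination 85.0, 115.4 and 83.2 CPM, so the 3 control tumours were the high ones. Its log2 fold change for SB202190 was -1.87 without EPZ-6438 and 0.17 with it, a difference of 2.04 ± 0.26 (SE; edgeR adjusted p = 0.00815). FAM155A, a membrane protein of the NALCN sodium channel complex, was 33.9 to 43.4 CPM in control, 13 to 13.5 CPM in p38i, 11.9 to 15.7 CPM in EZH2i and 21.3 to 27.5 CPM in the combination. Its difference was 2.30 ± 0.28 (edgeR adjusted p = 0.00815). HSPH1, a heat shock protein of the HSP110 family, had its lowest levels in control, 112.3 to 134.6 CPM, against 217.2 to 304.7 CPM in p38i, 312.1 to 326.4 CPM in EZH2i and 194.6 to 232.8 CPM in the combination. Its difference was -1.58 ± 0.22 (edgeR adjusted p = 0.0142), and it was not called without control 1-3, combination 8-1 or combination 9-1, with an adjusted p of up to 0.112.

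Averaged over both backgrounds, the values of these 3 genes were smaller. ITGA10 had a main effect of -0.86 ± 0.33, FAM155A one of -0.40 ± 0.34 and HSPH1 one of 0.19 ± 0.24 (edgeR adjusted p of 0.66, 0.741 and 0.821). These SEs and p come from the additive fit, which counts a difference between the pairs as spread. They are thus not comparable with the SEs of the interaction, here and for any gene whose pairs differ. With the pairs averaged in the model with 1 term per group, the edgeR adjusted p was 0.13 for ITGA10 and 0.56 for HSPH1. Over all 12514 genes, the p38 inhibitor took 10.6% of the sum of squares of log2 CPM, the EZH2 inhibitor 11.7%, their interaction 12.4% and the spread within groups 65.3%, which is 8.16% for each of its 8 degrees of freedom.

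**Figure D3:**
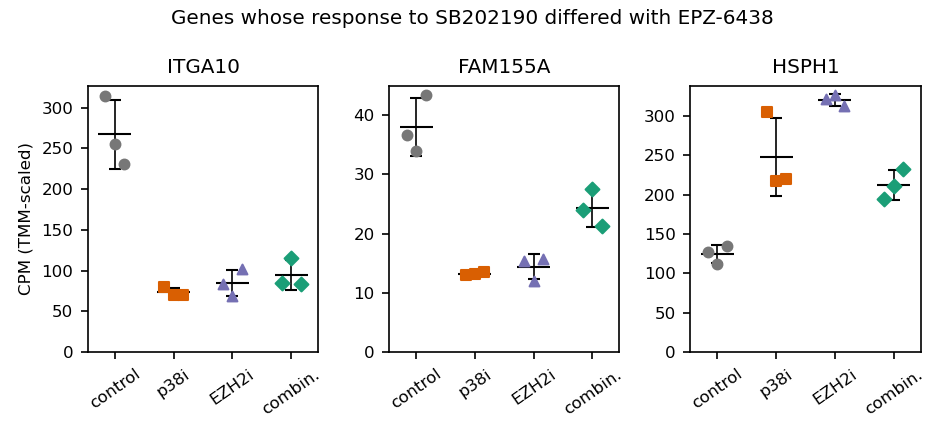
Level of the 3 genes called for the interaction, in CPM on a linear axis from 0, with 1 point per tumour and the mean ± SD of each group of 3. ITGA10 and FAM155A were highest and HSPH1 lowest in the control tumours.

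Genes of the p38 pathway itself showed small values in both directions. Of 23 tested kinases, activators and substrate kinases, 13 were higher and 10 lower, with a median log2 fold change of 0.06 (all genes: 6127 of 12514 higher, median -0.01), and none passed. Without col5 and col6 the median was 0.15. MAPK14, which encodes p38 alpha, ran from 92.7 over 95.5 to 146.2 CPM without SB202190 and from 99.0 over 128.4 to 139.9 CPM with it, a log2 fold change of 0.26 ± 0.13 (SE, n = 6 against 6; edgeR adjusted p = 0.66). MAPK13, the p38 delta gene, had 0.35 ± 0.16. MAPK11, the p38 beta gene, had 0 to 10 counts per library and was not tested. Of the other steps, MAP2K3, which encodes MKK3, had 0.32 ± 0.17, and MAPKAPK2, which encodes MK2, had -0.08 ± 0.13. PPM1D, a phosphatase that acts on p38, had the lowest p of the list, with 0.41 ± 0.18. EZH2, the target of the other compound, had 0.13 ± 0.16 (edgeR adjusted p = 0.806).

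Feedback genes of MAP kinase signalling, the dual-specificity phosphatases and Sprouty proteins, were higher in 5 of 14 and lower in 9, with a median of -0.12. The median was -0.26 in p38i against control and 0.09 in the combination against EZH2i, where 10 of 14 were higher, and in the main effect it was 0.03 without col5 and col6 and 0.0052 without EZH2i 6-1. DUSP4, which acts in the nucleus on ERK and other MAP kinases, averaged 1150 CPM with and 1590 CPM without SB202190 (log2 fold change -0.41 ± 0.20). It was 1876 to 2150 CPM in control and 973 to 1379 CPM in p38i. In EZH2i it was 697 to 1512 CPM, and in the combination 1172 to 1183 CPM. SPRED3 had -0.40 and SPRED1 -0.24, and DUSP1, the phosphatase best known for p38, had 0.36 ± 0.22. The AP-1 and other immediate early genes were higher in 13 of 16, with a median of 0.24. JUNB, an AP-1 subunit, ran from 83.8 over 119.0 to 141.0 CPM without and from 114.2 over 163.8 to 223.6 CPM with the inhibitor (0.49 ± 0.18). EGR1 had 0.30 ± 0.14 and MYC 0.83 ± 0.45. In the pairs, the AP-1 list had a median of 0.55 in p38i against control and -0.10 in the combination against EZH2i, where 7 of 16 were higher, and its median in the main effect was 0.22 without col5 and col6.

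ARE-containing cytokine and inflammatory transcripts had a median main effect of 0.41, with 11 of 12 tested members higher, beside 6127 of all 12514 genes. Of the 11, 3 were under an unadjusted p of 0.05, beside 3.22% of all genes in that direction. Unlike that of the AP-1 list, the ARE median was positive in each pair, 0.19 in p38i against control (9 of 12 higher) and 0.53 in the combination against EZH2i (12 of 12 higher). The median log2 CPM of its members was 4.73, 4.76 and 4.03 in control. It was 5.77 in p38i 3-3 but 4.19 and 4.35 in col5 and col6, so only p38i 3-3 lay above all controls. In EZH2i it was 4.29 to 4.89, and in the combination 4.95 to 5.34. CXCL8, the neutrophil chemokine interleukin-8, was 14.2, 22.8 and 13.7 CPM in control and 54.2, 20.4 and 21.5 CPM in p38i. It was 35, 27.1 and 18.3 CPM in EZH2i and 32.2, 52 and 54.6 CPM in the combination. The highest values thus fell in p38i 3-3 and in 2 combination tumours, and the sides overlapped. Its log2 fold change was 0.84 ± 0.26 (SE, n = 6 against 6; edgeR adjusted p = 0.66).

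IL11, a cytokine of the interleukin-6 family, was 5.9 to 23.6 CPM with a median of 16.9 without SB202190 and 12.7 to 52.6 CPM with a median of 30.1 with it (1.05 ± 0.34). VEGFA, the angiogenic growth factor, was 122.5 to 291.1 CPM without and 137.3 to 522.2 CPM with it (0.50 ± 0.23). The highest VEGFA level was that of combination 9-1, and without p38i 3-3 the log2 fold change of VEGFA was 0.28. Several defining members of this list, IL6, TNF, CSF2, CCL2 and IL1B among them, had too few counts to be tested, so the 12 tested members are those these tumours expressed. Leaving out p38i 3-3 took the median of the list from 0.41 to 0.23, and leaving out both col5 and col6 took it to 0.71.

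NF-kB targets were higher in 10 of 14, with a median of 0.14. In p38i against control 7 of 14 were higher, with a median of 0.04, and in the combination against EZH2i 13 of 14, with a median of 0.25. NFKB1, the p105 and p50 subunit, was 38.7 to 53.4 CPM without and 52.7 to 71.9 CPM with SB202190, and only EZH2i 5-4 without the inhibitor reached the level of the lowest treated library. Its log2 fold change was 0.35 ± 0.10 in the main effect, 0.32 in p38i against control and 0.38 in the combination against EZH2i (edgeR adjusted p = 0.66 for the main effect). RELB had 0.42 ± 0.21 and TRAF1 0.49 ± 0.25. Without col5 and col6 the median of the list was 0.28, and without p38i 3-3 it was 0.06.

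BMP and SMAD target genes had a median of -0.32, with 5 of 17 tested members higher and 12 lower. ID2, an inhibitor of helix-loop-helix factors, was 14.2 to 29.6 CPM without and 9.7 to 18.8 CPM with SB202190 (-0.79 ± 0.24, SE, n = 6 against 6; edgeR adjusted p = 0.66). ATOH8, a helix-loop-helix factor induced by BMP, was 12.6 to 22.8 CPM in control, 0 to 2.8 CPM in p38i, 0.5 to 6.1 CPM in EZH2i and 2.2 to 3.5 CPM in the combination. Its main effect of -1.95 ± 0.72 joined a log2 fold change of -3.62 in the first pair and -0.07 in the second. ID1, singled out after its values were seen, was 181.1, 206.6 and 272.3 CPM in control and 30.3, 30.6 and 43.3 CPM in p38i, against 82.9, 22.4 and 86.0 CPM in EZH2i and 82.9, 171.7 and 70.3 CPM in the combination. ID1 fell in p38i against control by 2.66 on the log2 scale (edgeR adjusted p = 0.0297) and had 0.79 in the other pair, which left a main effect of -0.93 ± 0.71. In p38i against control 2 of 17 members were higher, and 5 fell and 1 rose past the adjusted threshold of edgeR, beside 139 (1.11%) and 82 (0.655%) of all 12514 genes. The list median was -0.68 there and 0.06 in the combination against EZH2i. Its median in the main effect was -0.13 without col5 and col6 and -0.54 without EZH2i 5-4.

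BMP and TGF-beta ligands and receptors were higher in 11 of 23 (median -0.05). GDF15, a stress-induced member of the family, had -0.68 ± 0.30, and TGFB2 had -0.75 ± 0.37. Control 1-1 held 378.8 CPM of TGFB2, the highest of the 12 libraries, and without it the value was -0.31. Without control 2-1 that of GDF15 was -0.38.

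**Figure D4:**
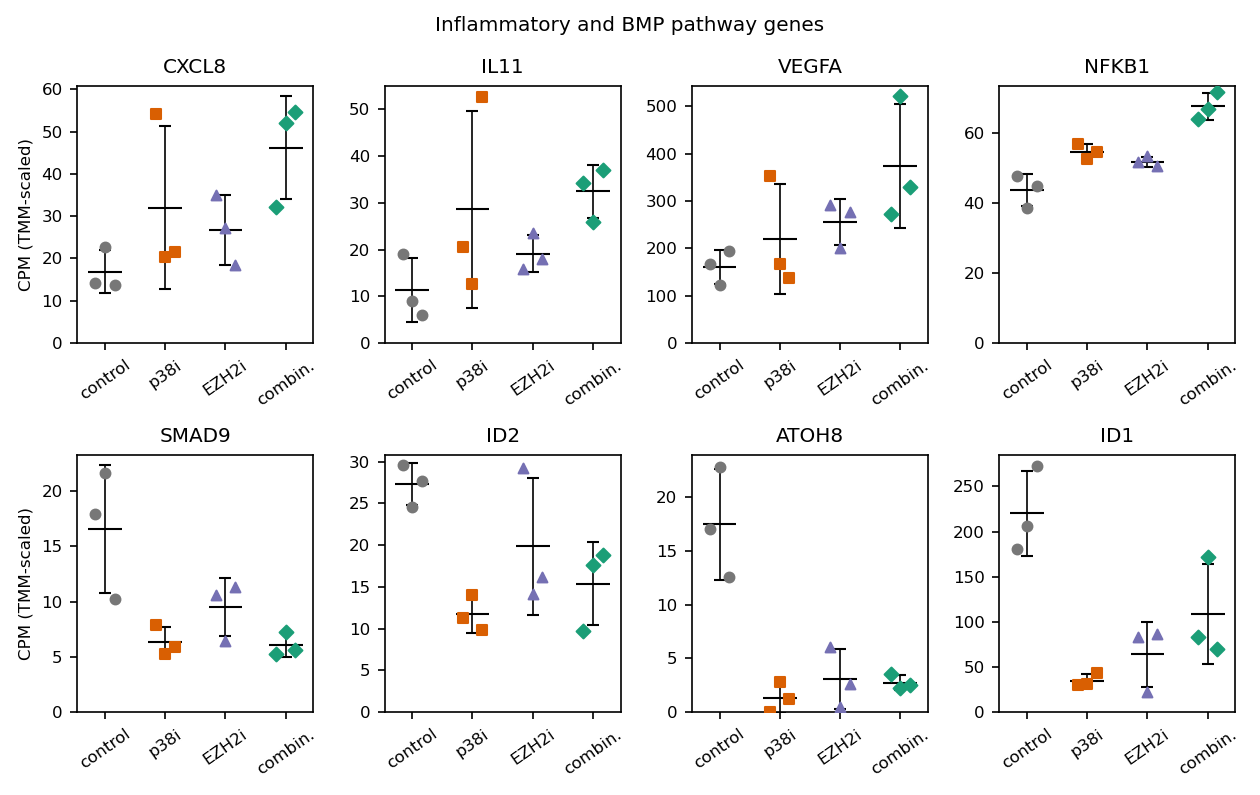
Level of 8 genes of the inflammatory and BMP groups, in CPM on a linear axis from 0, with 1 point per tumour and the mean ± SD of each group of 3. CXCL8, IL11, VEGFA and NFKB1 lie higher on average in p38i than in control and in the combination than in EZH2i, and ATOH8 and ID1 are high in the control tumours.

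Genes of the cell surface and of invasion had no common direction. Integrin subunits were higher in 6 of 14 (median -0.09), with ITGA9 at 0.94 ± 0.36, on 1.66 CPM without and 3.12 CPM with SB202190, and ITGA1, a collagen receptor, at -0.94 ± 0.40. ITGA1 was 64.0 to 154.8 CPM in control and 23.0 to 38.1 CPM in p38i. In EZH2i it was 17.4 to 41.0 CPM, and in the combination 17.3 to 36.9 CPM. Proteases of invasion and their inhibitors were higher in 9 of 20 (median -0.08). The lysosomal proteases CTSB and CTSD had -0.37 ± 0.13 and -0.60 ± 0.24, and ADAM10, a sheddase of membrane proteins, had 0.34 ± 0.14. Mesenchymal genes were higher in 13 of 18 (median 0.19). LOXL2, a collagen cross-linking enzyme, had 0.49 ± 0.16, SNAI2, a repressor of epithelial genes, 0.43 ± 0.16, and FN1, fibronectin, -0.64 ± 0.34. LOXL2 was 109.5 to 134.4 CPM in control and 223.2 to 252.2 CPM in p38i. In EZH2i it was 165.9 to 220.0 CPM, and in the combination 174.1 to 221.2 CPM. Epithelial genes were higher in 4 of 14 (median -0.15), with ELF3 at -1.003, MUC1 at -0.79 and CLDN4 at -0.18. The average described neither pair, with 2 of 14 higher (median -0.54) in p38i against control. In the combination against EZH2i 10 of 14 were higher (median 0.23). The median of the list in the main effect was 0.36 without control 1-1 and control 1-3.

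Cell cycle lists had positive medians in the main effect and in p38i against control, and medians near 0 in the combination against EZH2i. All 26 G2/M and mitotic genes had a positive main effect, with a median of 0.39 and none past the adjusted threshold, and 7 were under an unadjusted p of 0.05, beside 3.22% of all genes in that direction. In p38i against control their median was 0.78, and 4 rose past the adjusted threshold, beside 0.655% of all genes. In the combination against EZH2i it was -0.02, with 12 of 26 higher. KIF2C, a microtubule-depolymerising kinesin, was 27.5, 47.4 and 61.6 CPM in control, 74.6, 100.2 and 129.7 CPM in p38i, 60.2, 88.0 and 67.7 CPM in EZH2i and 88.5, 94.4 and 86.9 CPM in the combination. Its log2 fold change was 0.73 ± 0.21 (SE, n = 6 against 6; edgeR adjusted p = 0.66), and control 1-1 and control 1-3 had the lowest levels. The mitotic kinesin KIF20A had 0.87 ± 0.30 and CCNB1, cyclin B1, had 0.61 ± 0.20. Without control 1-1 and control 1-3 the median of the list was 0.13, and without col5 and col6 it was 0.14.

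S phase and E2F genes were higher in 20 of 21 (median 0.22, and 0.10 without these controls), with medians of 0.44 and 0.04 in the 2 pairs. UHRF1, which guides maintenance methylation of DNA, had 0.74 ± 0.27, RRM1, a subunit of ribonucleotide reductase, 0.35 ± 0.12, and its partner RRM2 0.52 ± 0.26. CDK inhibitors and p53 targets were split, with 9 of 18 higher (median -0.02). Among them BBC3, the death-promoting protein PUMA, averaged 141.7 CPM with and 237.3 CPM without SB202190 (-0.65 ± 0.23). It was 200 to 403 CPM in control and 122 to 168 CPM in p38i. In EZH2i it was 117 to 198 CPM, and in the combination 102 to 173 CPM. BTG2 had 1.06 ± 0.47 and ZMAT3 -0.26 ± 0.12. The apoptosis list, which also holds BBC3, was higher in 16 of 24 (median 0.13). BCL2L1, an inhibitor of apoptosis, had -0.28 ± 0.15, and CASP9, the initiator caspase of the mitochondrial route, 0.69 ± 0.39.

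Of the stress and metabolic lists, cholesterol synthesis had a median of 0.31 (0.17 without col5 and col6), with 16 of 21 higher. Of the 16, 5 were under an unadjusted p of 0.05, beside 3.22% of all genes in that direction. FDPS and IDI1, enzymes of that route, had 0.90 ± 0.36 and 0.60 ± 0.25. Its median was 0.46 in p38i against control and 0.03 in the combination against EZH2i, and 0.14 in the main effect without control 1-1 and control 1-3. Heat shock genes were higher in 13 of 14 (median 0.15), but the pairs had medians of opposite sign, 0.52 and -0.34, with 3 of 14 higher in the second, and the main effect had -0.08 without these controls. The co-chaperone DNAJA1 had 0.26 ± 0.14, HSPA8 0.40 ± 0.26 and HSPE1 0.25 ± 0.17.

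The unfolded protein and ATF4 list was higher in 9 of 19 (median -0.04, and 0.16 without col5 and col6). CTH, an enzyme of cysteine synthesis, had 1.00 ± 0.31, ATF4 itself -0.35 ± 0.14, and PDIA4 0.45 ± 0.20. Hypoxia and glycolysis genes were higher in 12 of 21 (median 0.07), with ALDOA at -0.29 ± 0.12 and HK2 at 0.64 ± 0.33. Oxidative phosphorylation genes were higher in 21 of 27 (median 0.10), with CYC1 at 0.32 and SDHC at 0.41. Cytosolic ribosomal protein genes were higher in 3 of 28 (median -0.15), led in p by RPS4X at -0.60 ± 0.22.

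In the main effect, immune, lineage and Polycomb lists had medians near that of all genes, but some differed between the pairs. In the combination against EZH2i, antigen presentation had a median of 0.36 (12 of 15 higher). There the Notch pathway had 0.29 (9 of 11) and EZH2-repressed genes 0.23 (16 of 21). These 3 lists had 0.05, 0.01 and -0.04 in p38i against control. The stem cell list had -0.27 there, with 1 member higher and 2 lower past the adjusted threshold, and 0.06 in the other pair. The type I interferon response was higher in 11 of 20 (median 0.13), with STAT2 at -0.34 ± 0.16. Antigen presentation was higher in 8 of 15 (median 0.02), with TAP2, a peptide transporter, at 0.84 ± 0.40. Notch pathway genes were higher in 7 of 11 (median 0.15), breast stem cell associated genes in 4 of 12 (median -0.11) and housekeeping genes in 8 of 15 (median 0.02). Without EZH2i 6-1 the Notch median was 0.01, and with 1 library left out the stem cell median ran from -0.27 (EZH2i 5-4) to 0.0084 (combination 8-1). PRC2 subunits were higher in 9 of 13 (median 0.08), led in p by the histone-binding RBBP7 at 0.49 ± 0.17. Known EZH2-repressed genes from other systems were higher in 12 of 21 (median 0.07), with DKK1, a secreted WNT inhibitor, at 0.94 ± 0.29. All 3 tested nuclear non-coding RNAs had negative values (median -0.47), with MALAT1 at -0.47 ± 0.18 and NEAT1, the scaffold of paraspeckles, at -0.55 ± 0.22. MALAT1 took 2.14 ± 0.39% of a library's counts with SB202190 and 2.95 ± 0.87% without it (SD, n = 6 each; exact permutation test within strata, two-sided, p = 0.04, adjusted p = 0.16, smallest p possible 0.005).

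**Figure D5:**
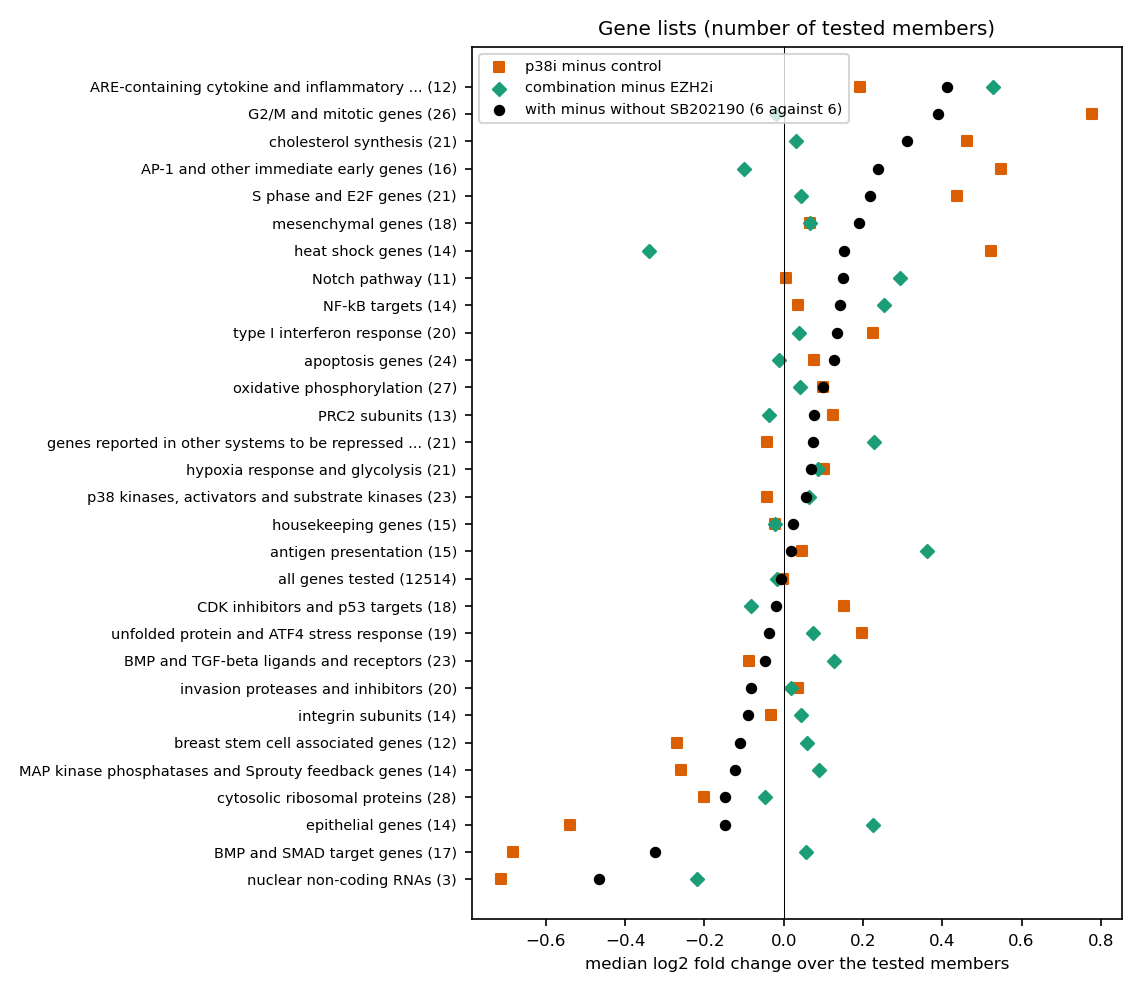
Median log2 fold change over the tested members of 29 gene lists and of all tested genes, for p38i minus control (squares), combination minus EZH2i (diamonds) and the main effect (circles). The ARE and nuclear RNA lists, like those of NF-kB targets, cholesterol synthesis and ribosomal proteins among others, have the same sign in both pairs. For G2/M, AP-1, BMP target, epithelial and heat shock genes the pairs differ in sign.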

How the data were processed

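RNA was sequenced from 12 tumours, 3 per group. The deposited table holds raw counts per gene symbol, 1 column per library, for 25369 symbols; 3 further lines name no gene, hold 0 counts and were left out. Per the submitters' processing notes, Trim Galore 0.5.0, STAR 2.6.0 and hg19 were used. The counting program, strand use and removal of mouse reads are not given in the sources used here, and the labels' protocols name both a SMARTer and a QuantSeq kit. No coordinates are given.

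Genes were filtered with filterByExpr (12514 kept), scaled by TMM and fitted in edgeR 4.0.16 (R 4.3.3, robust quasi-likelihood) with additive EZH2 and p38 inhibitor terms; pairs and interaction came from a model with 1 term per group. All p are two-sided, adjusted by Benjamini-Hochberg over all tested genes, threshold 0.05, with SEs derived from F. Levels are TMM-scaled CPM; log2 CPM for sums of squares used a prior count of 2. Alternatives used DESeq2 1.42.0 and limma 3.58.1. Code was tested on simulated counts. The common biological coefficient of variation was 0.235. Titles number the tumours (9-1, 9-2), and no source says whether some share a mouse, so p-values measure the spread between these libraries.

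The members, lists and rules were chosen with earlier results of these data known. The rule named genes called in the main effect and changed the same way in both pairs, of which there were none. It also named the 5 smallest p per direction, up to 6 interaction genes and the targets. From each list it took the 3 members with the smallest p, not all of which are printed. MAP2K3, MAPKAPK2 and DUSP1 were added for their role. The 17 genes with an unadjusted p under 0.05 in both pairs and the same direction were added after their values were seen. So were ID1, ID3, CXCR4, GSDMC and PTX3.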

Additional observations from a re-analysis of the deposited data

Results flagged for a closer look

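The response to SB202190 differed with EPZ-6438 for 3 genes by the interaction test: FAM155A by 2.30, ITGA10 by 2.04 and HSPH1 by -1.58 on the log2 scale (edgeR adjusted p = 0.00815, 0.00815 and 0.0142). ITGA10 and FAM155A were called under all 20 alternatives run for the interaction, with adjusted p of at most 0.0323 and 0.0312. HSPH1 was called under 17 of them.

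Of 38 sets of 6 libraries examined for a library far from the rest, 6 held one, and chance marks about 1 in 20. BTN3A2 stood at 25.6 CPM in EZH2i 5-3, above the other 5 libraries without SB202190. MAPK14 stood at 146.2 CPM in EZH2i 5-4, also above the other 5. ITGA10 stood at 115.4 CPM in combination 9-1 and HSPH1 at 304.7 CPM in p38i 3-3, each above the other 5 libraries with SB202190. Skeletal muscle markers took 0.165% of the counts of p38i col6, and 0.0171% of those of control 1-1 on the side without the inhibitor.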

How the results depend on the processing

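The main effect had 0 calls under every edgeR and limma-voom setting and with each library left out; DESeq2 called 1 gene, 1 of them higher (C15orf48, log2 fold change 1.35, DESeq2 adjusted p = 0.00559). With DESeq2, p38i against control gave 632 calls, the combination against EZH2i 1 (PTX3, 1.92, adjusted p = 0.0301) and the interaction 226; without a filter on low counts the interaction gave 70. With 1 library left out, p38i against control ranged from 2 to 568 calls and the interaction from 2 to 42 (42 without EZH2i 5-3, 12 without control 2-1, 8 without p38i col6, 7 without control 1-1); the cause was not tested. Without control 1-1 and control 1-3 together, HSPH1 turned to -0.15, EZH2 to -0.053, ELF3 to 0.086, MUC1 to 0.38 and MAPKAPK2 to 0.018; with single libraries left out MAPKAPK2 ranged from -0.16 to 0.0041. Without p38i col5 and col6, FAM155A turned to 0.11, EZH2 to -0.095, MUC1 to 0.0125, CLDN4 to 0.045 and PHF19 to -0.041. Of 114 named genes, 8 turned sign under any of 24 settings, and 30 moved by over 1.5 times or turned sign with 1 library left out. No paired analysis was possible because the tumour numbers are not shared between groups. The limits are 3 tumours per group, totals of 2208771 to 4467942 counts, and 2 p38i columns whose tumours the labels do not separate.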
